A study of Mus musculus with 22 samples.

Results

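Matrix metalloproteinases and their tissue inhibitors were followed in the mammary tissue of mice that ran on wheels or did not, 24 hours after mammary cancer cells had been engrafted. The set held 10 genes, taken by symbol from 52526 symbols: the metalloproteinases Mmp2, Mmp3, Mmp9, Mmp12, Mmp13 and Mmp14, the inhibitors Timp1, Timp2 and Timp3, and the related protease Adamts1. Each of the 10 symbols was present in the file of every mouse, and all 10 passed the filter on low values. Matrix metalloproteinases are zinc-dependent enzymes that cut collagen, elastin and other proteins of the extracellular matrix, and tissue inhibitors of metalloproteinases (TIMPs) bind their catalytic site and block it. ADAMTS proteases are secreted relatives that cut proteoglycans such as versican and aggrecan, and Timp3 inhibits several of them. In the mammary gland these enzymes take part in the branching of ducts and in the remodelling of stroma after lactation, and around tumors they are made by fibroblasts and leukocytes as well as by cancer cells.

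RNA was measured in 22 female C57BL/6J mice, 7 to 8 weeks old, in 4 groups set by activity and liposome. All mice received EO771 cells (a cancer line from C57BL/6 mammary tissue, here carrying luciferase) in the left mammary fat pad, and all received liposomes into a vein 24 hours before the engraftment and again with it. Wheel mice had a running wheel for 2 weeks before the engraftment, and control mice had the hub of the wheel alone. The groups were control + PBS (6 mice), wheel + PBS (6 mice), control + clodronate (5 mice) and wheel + clodronate (5 mice). Clodronate liposomes kill phagocytes, mainly macrophages, that take them up, and PBS liposomes carry no drug. Host and engrafted cells are both mouse cells, so their reads were counted together. The samples are whole pieces of tissue, in which fewer cells of a type and less RNA per cell cannot be told apart.

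Levels are in CPM (the reads of a gene scaled to a common library size), in which the authors raised every value below 1 to 1, so that 1 CPM is a floor. The sequencing method reads a transcript once, near its 3′ end, so CPM values were compared between genes without a correction for length. The libraries held 13256467 to 20484578 reads, and the floor stood for at most 13 to 20 reads. Adipocyte markers (8 of 8 genes above the floor) had a mean log2(CPM + 1) of 8.91 to 10.3 and epithelial markers (8 of 8) of 4.84 to 6.45 in the 22 mice, so both tissues of a mammary fat pad were present. Lymphocyte markers stood at 4.35 to 5.76 in 5 mice (control + PBS replicate 2, wheel + PBS replicate 3, wheel + clodronate replicates 3, 4 and 5) and at 1.00 to 1.39 in the other 17. Skeletal muscle markers ranged from 1.96 to 11.2, with the highest values in control + clodronate replicate 2 and wheel + clodronate replicate 2 (10.1). Macrophage markers (11 of 11 genes above the floor in at least 1 mouse of each group) were 0.41 lower on the log2 scale with clodronate in control mice (exact permutation p = 0.130) and 0.13 lower in wheel mice (exact permutation p = 0.667), or 0.27 lower averaged over activity (exact permutation p = 0.153). Without the 5 lymphocyte-rich mice, which leaves 2 wheel + clodronate mice, they were lower by 0.43 (exact permutation p = 0.167), 0.67 (exact permutation p = 0.143) and 0.55 (exact permutation p = 0.0246).

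The 10 genes lie on 8 chromosomes, and Mmp13 (chr9:7272514-7283331), Mmp12 (chr9:7344381-7369499) and Mmp3 (chr9:7445822-7455975) lie on the plus strand within 183.5 kb of chromosome 9 (GRCm38, GENCODE M21), where Mmp1b, at the floor in all 22 mice, is the only other protein-coding gene. Mmp13 is an interstitial collagenase, Mmp12 the elastase of macrophages, and Mmp3 the stromelysin that cuts proteoglycans and activates other metalloproteinases. Their promoters are shown because genes of this cluster are known targets of AP-1, the Fos and Jun transcription factor that binds TGANTCA. The letters are the 70 bases before the RefSeq start of transcription (GRCm38.p6), 5′ to 3′ on the strand of the gene, with each TGANTCA in capitals. The motif reads the same on both strands.
Mmp3 (chr9:7445752-7445821, plus strand): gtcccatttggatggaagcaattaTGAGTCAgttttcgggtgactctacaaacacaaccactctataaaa
Mmp12 (chr9:7347304-7347373, plus strand): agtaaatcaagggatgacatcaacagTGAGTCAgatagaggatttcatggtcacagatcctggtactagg
Mmp13 (chr9:7272444-7272513, plus strand): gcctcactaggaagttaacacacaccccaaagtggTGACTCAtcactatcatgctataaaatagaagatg
The match began 46 bases before the start in Mmp3, 44 in Mmp12 and 35 in Mmp13. Mmp12 has another RefSeq start upstream (its 70 bases are chr9:7344327-7344396), and no match was found there. Over all 32851 RefSeq promoters, 1.82% held TGANTCA in these 70 bases and 7.81% in the 300 bases from 250 before to 50 after the start.

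None of the other 5 genes with an entry (Mmp14, Timp1, Timp2, Timp3 and Adamts1) held TGANTCA in those 300 bases. Each of them instead held GGGCGG, the GC box bound by Sp1, on either strand within 70 bases of the start, and the 3 genes of the chromosome 9 cluster did not. They are printed for that contrast, in the same way, with GGGCGG or its reverse complement CCGCCC in capitals.
Mmp14 (chr14:54431528-54431597, plus strand): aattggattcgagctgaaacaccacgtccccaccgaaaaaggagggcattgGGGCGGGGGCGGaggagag
Timp1 (chrX:20870096-20870165, plus strand): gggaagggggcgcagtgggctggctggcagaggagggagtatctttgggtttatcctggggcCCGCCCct
Timp2 (chr11:118355412-118355481, minus strand): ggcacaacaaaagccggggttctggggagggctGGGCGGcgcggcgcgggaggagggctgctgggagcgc
Timp3 (chr10:86300342-86300411, plus strand): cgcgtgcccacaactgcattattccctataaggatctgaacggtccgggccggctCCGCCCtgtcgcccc
Adamts1 (chr16:85803114-85803183, minus strand): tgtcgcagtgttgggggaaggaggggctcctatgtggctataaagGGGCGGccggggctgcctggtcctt
Of all 32851 promoters, 20.6% held a GC box in these 70 bases. TATAAA, read on the strand of the gene, was found in the 300-base promoter of Mmp3, Mmp13, Adamts1 and the downstream start of Mmp12, and 8.32% of all promoters held it. Matches of letters are a description of the sequence and do not show that a factor was bound. Mmp2 (chr8:92827291-92853420) and Mmp9 (chr2:164940780-164955850) had no entry.

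The inhibitors Timp2 and Timp3 were by far the most abundant of the 10 genes. Timp2 (chr11:118301069-118355740), which besides blocking metalloproteinases takes part in the activation of pro-Mmp2 on the cell surface, had a mean of 485 ± 126 CPM (SD, n = 22). Timp3 (chr10:86300372-86349506), the inhibitor that stays bound to the matrix, had 421 ± 95.7 CPM. Mmp14 (chr14:54431612-54445364), the membrane-anchored collagenase that activates pro-Mmp2, had 103 ± 21.1 CPM, and Mmp2, the gelatinase of fibroblasts, had 57.9 ± 21.9 CPM. Mmp3 (22.8 ± 10.2 CPM) and Adamts1 (chr16:85793827-85803113, 21.1 ± 8.08 CPM) came next. Mmp12 (5.58 ± 3.02 CPM), Mmp9 (4.94 ± 3.31 CPM), the gelatinase of neutrophils and other leukocytes, and Timp1 (chrX:20870166-20874735, 4.70 ± 4.13 CPM), the inhibitor induced in inflammation and growth, were near the floor. Mmp13 was at the floor in 13 of 22 mice and reached 5.79 CPM at most.

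**Figure D1:**
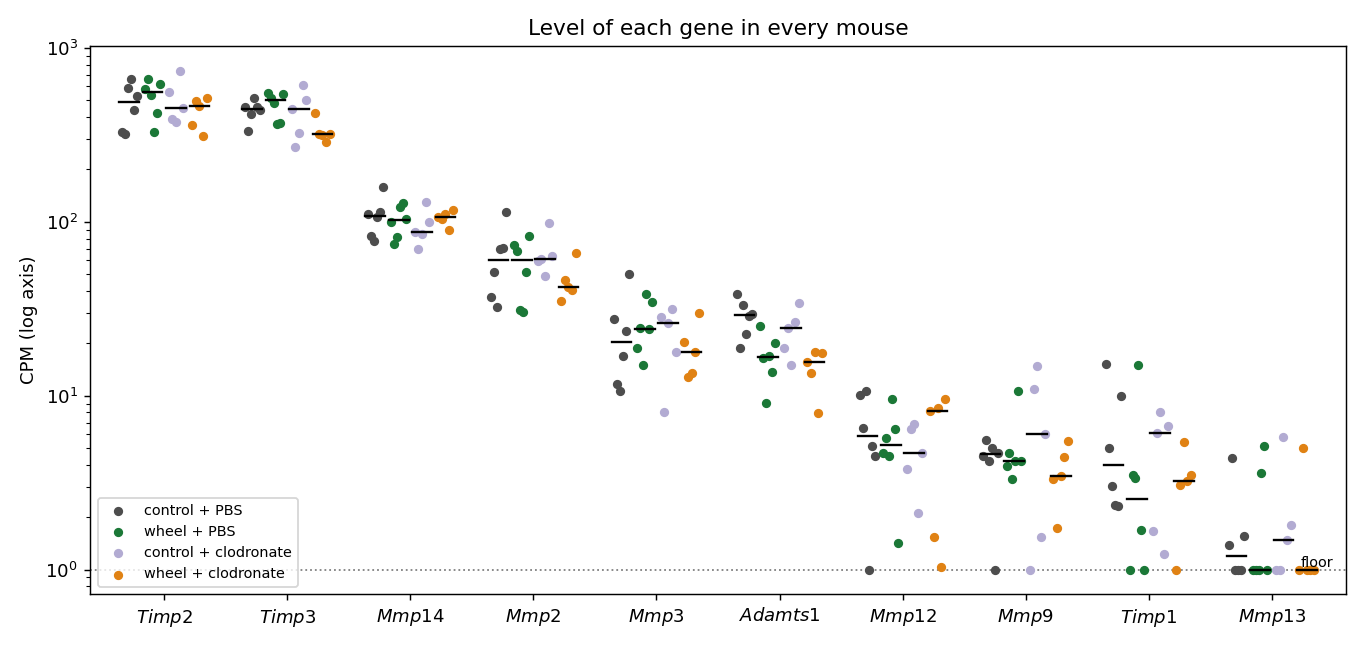
Each point is 1 mouse, with CPM on a log axis, the 10 genes ordered by mean level and the 4 groups in colors. Bars are group medians and the dotted line is the floor of 1 CPM. Timp2 and Timp3 lie above all other genes in each mouse, and Mmp13 lies on the floor in 13 of 22.

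Of the 9 neighbouring pairs in this order, 6 differed within mice (permutation test flipping the sign of each mouse's difference, 100000 draws, two-sided, adjusted over the 9 pairs). Timp2 exceeded Timp3 by 0.19 on the log2(CPM + 1) scale in 16 of 22 mice (adjusted p = 0.0104), and by 0.17 (adjusted p = 0.0552) without the 5 lymphocyte-rich mice. Mmp14 exceeded Mmp2 by 0.88 in 22 of 22 mice (adjusted p = 2.25e-05, which rests on the smallest p the draws can give). Mmp3 and Adamts1 (difference 0.08, adjusted p = 0.638), Mmp12 and Mmp9 (0.15, adjusted p = 0.507), and Mmp9 and Timp1 (0.17, adjusted p = 0.507) were not separated. Timp1, Timp2 and Timp3 summed exceeded the summed 6 metalloproteinases of the set in every mouse, by 2.95 to 7.50 times (median 4.43). Within these sums, Timp2 and Timp3 made up 97.9% to 99.9% of the inhibitor CPM. Mmp14 and Mmp2 made up 71.5% to 88.0% of the metalloproteinase CPM. The sums leave out genes outside the set, among them Timp4 (mean 47.0 CPM), Mmp15 (21.6 CPM) and Mmp19 (21.4 CPM), so they are not totals for the tissue. The ratio of inhibitors to metalloproteinases was 4.78 ± 1.59 (SD, n = 6) in control + PBS, 5.30 ± 1.64 (n = 6) in wheel + PBS, 4.71 ± 0.70 (n = 5) in control + clodronate and 4.23 ± 0.45 (n = 5) in wheel + clodronate mice, and the ranges of the 4 groups overlapped.

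The mean coefficient of variation within groups was 19.6% for Timp3, 20.2% for Mmp14, 26.1% for Timp2, 28.9% for Adamts1, 35.4% for Mmp2 and 44.1% for Mmp3. It was 54.2% for Mmp9, 54.8% for Mmp12, 80.8% for Timp1 and 88.2% for Mmp13. At the median number of reads, counting alone would give 13.1% for Timp1 (58 reads) and 1.14% for Timp2 (7638 reads), below the spread of either gene. These counting values cover counting error only, and variation from dissection and library preparation was not measured.

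Wheel running was compared with the control condition within each liposome and over both. No member of the set had an adjusted p under 0.05 for the wheel (limma on log2(CPM + 1), Benjamini-Hochberg over 15138 symbols). Over all symbols tested the share called was 0% with PBS liposomes, 0.00661% with clodronate and 0% averaged over both. At an unadjusted p of 0.05, 1 of 10 genes was past the threshold in each of the 3 comparisons, against 4.91%, 10.4% and 8.09% of all symbols, and in each it was Adamts1. The median log2 difference of the 10 genes was 0.01 with PBS liposomes, -0.26 with clodronate and -0.06 on average, beside -0.08, 0.00 and -0.04 over all symbols tested.

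Adamts1, which cuts versican and aggrecan and is known to restrain vessel growth, was lower in wheel mice under both liposomes. In control + PBS mice it ranged from 18.9 to 38.2 CPM around a median of 29.1, and in wheel + PBS mice from 9.09 to 25.3 CPM around a median of 16.7. With clodronate, control mice had 18.8, 24.4, 14.997, 26.6 and 33.9 CPM, and wheel mice had 15.6, 13.5, 17.8, 7.96 and 17.5 CPM. The wheel mice thus lay in the lower part of the range under each liposome, except wheel + PBS replicate 1 (25.3 CPM). The groups overlapped, as they did for all 10 genes in every comparison of a pair of groups (0.264% of all symbols did not overlap with PBS liposomes and 1.27% did not with clodronate).

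The means of Adamts1 were 28.6 ± 7.02 (SD, n = 6) against 16.9 ± 5.51 CPM (n = 6) with PBS liposomes, a log2 difference of -0.75 ± 0.24 (SE). That difference had an adjusted p of 0.987 in limma and an exact two-sided permutation p of 0.0108. With clodronate they were 23.8 ± 7.30 (n = 5) against 14.5 ± 4.03 CPM (n = 5), a log2 difference of -0.68 ± 0.27 (limma adjusted p = 0.343, exact permutation p = 0.0397). Averaged over liposomes the log2 difference was -0.71 ± 0.18 (95% interval -1.09 to -0.34), a level 0.61 times that of control mice. Its limma adjusted p was 0.501, and its exact permutation p within liposomes was 0.000601, a single-gene value that is not adjusted for the 70 gene-by-comparison values computed. It was -0.66 without the 5 lymphocyte-rich mice and between -0.78 and -0.62 without any single mouse. The effects under the 2 liposomes differed by 0.07 ± 0.36 (limma adjusted p = 0.993). Over the 22 mice Adamts1 had an r of 0.544 with the adipocyte marker score (permutation adjusted p = 0.0557) and a rho of 0.578 (permutation adjusted p = 0.0383). That score was 0.07 lower in wheel mice with PBS liposomes (exact permutation p = 0.766) and 0.34 lower with clodronate (exact permutation p = 0.206), and its part in the Adamts1 values was not tested.

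Partner genes were named for the highest mean CPM or the smallest limma p in an averaged contrast within their list, and Adamts5 and Timp4 had both. Their differences for the wheel had the same sign as that of Adamts1 and were larger. Because p entered the choice, they are no independent support for the Adamts1 difference. Adamts5 (chr16:85856173-85901828), the main aggrecanase of cartilage, lies 53059 bases from Adamts1 on the same strand with no protein-coding gene between them. It had 98.6 ± 37.9 CPM in control + PBS (n = 6), 56.5 ± 27.2 in wheel + PBS (n = 6), 62.9 ± 28.2 in control + clodronate (n = 5) and 25.3 ± 9.53 in wheel + clodronate mice (n = 5). With clodronate the groups did not overlap, as for 1.27% of all symbols: wheel mice had 10.6 to 35.9 CPM and control mice 39.8 to 112 CPM. Averaged over liposomes the log2 difference for wheel was -1.06 ± 0.24 (limma adjusted p = 0.460). Adamts5 was also lower with clodronate, by a log2 difference of -0.87 ± 0.24 averaged over activity (limma adjusted p = 0.118). Over the 22 mice the deviations of Adamts1 and Adamts5 from their group means correlated with r = 0.687.

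Timp4, the inhibitor most restricted to fat and heart, had 67.3 ± 23.3 CPM in control + PBS (n = 6), 43.2 ± 27.9 in wheel + PBS (n = 6), 54.4 ± 32.4 in control + clodronate (n = 5) and 19.9 ± 5.95 in wheel + clodronate mice (n = 5). Here too the groups did not overlap with clodronate (1.27% of all symbols did not), at 11.3 to 26.1 CPM in wheel mice and 32.9 to 112 CPM in control mice. The log2 difference averaged over liposomes was -1.08 ± 0.28 (limma adjusted p = 0.501). For clodronate averaged over activity it was -0.62 ± 0.28 (limma adjusted p = 0.443). Timp4 overlaps Syn2 on the opposite strand, as Timp1 overlaps Syn1 and Timp3 overlaps Syn3. Syn1 and Syn3 were at the floor in all 22 mice, whereas Syn2 had 6.31 to 76.5 CPM, and its deviations correlated with those of Timp4 with r = -0.085. How the counting treated strand is not given in the sources used here.

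**Figure D2:**
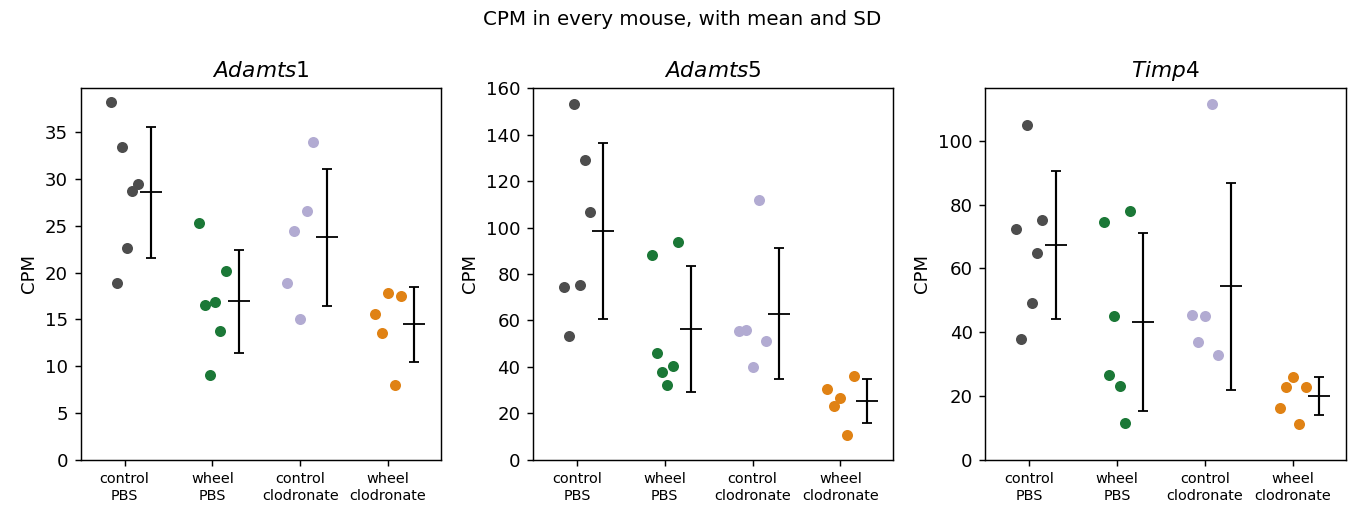
CPM of Adamts1, Adamts5 and Timp4 in each mouse (points) by group, with mean and SD beside them (6, 6, 5 and 5 mice). The means of wheel mice are lower than those of control mice under both liposomes. For Adamts5 and Timp4 the groups given clodronate do not overlap, as for 1.27% of all symbols. No adjusted p passed 0.05.

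For the other 9 genes the unadjusted p was above 0.05 in the comparisons of wheel and control mice, and whether Adamts1 differed more than they did was not tested. Mmp2 was 62.4 ± 29.7 against 56.3 ± 22.4 CPM with PBS liposomes (control first), and 66.3 ± 19.02 against 46.0 ± 11.8 CPM with clodronate, a log2 difference of -0.51 ± 0.31 in the latter (limma adjusted p = 0.614, exact permutation p = 0.0556). Timp1 was 6.29 ± 5.22 against 4.27 ± 5.40 CPM with PBS liposomes, a log2 difference of -0.63 ± 0.51 that mice of either group spanned (2.30 to 15.2 CPM in control and 1 to 15.1 CPM in wheel mice). Mmp14 was the most tightly measured: its log2 difference averaged over liposomes was 0.05, and its 95% interval reached 0.26 to either side of it. For Timp1 the interval reached 0.78 to either side. Differences of Timp1 were thus resolved less finely than those of Mmp14.

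**Figure D3:**
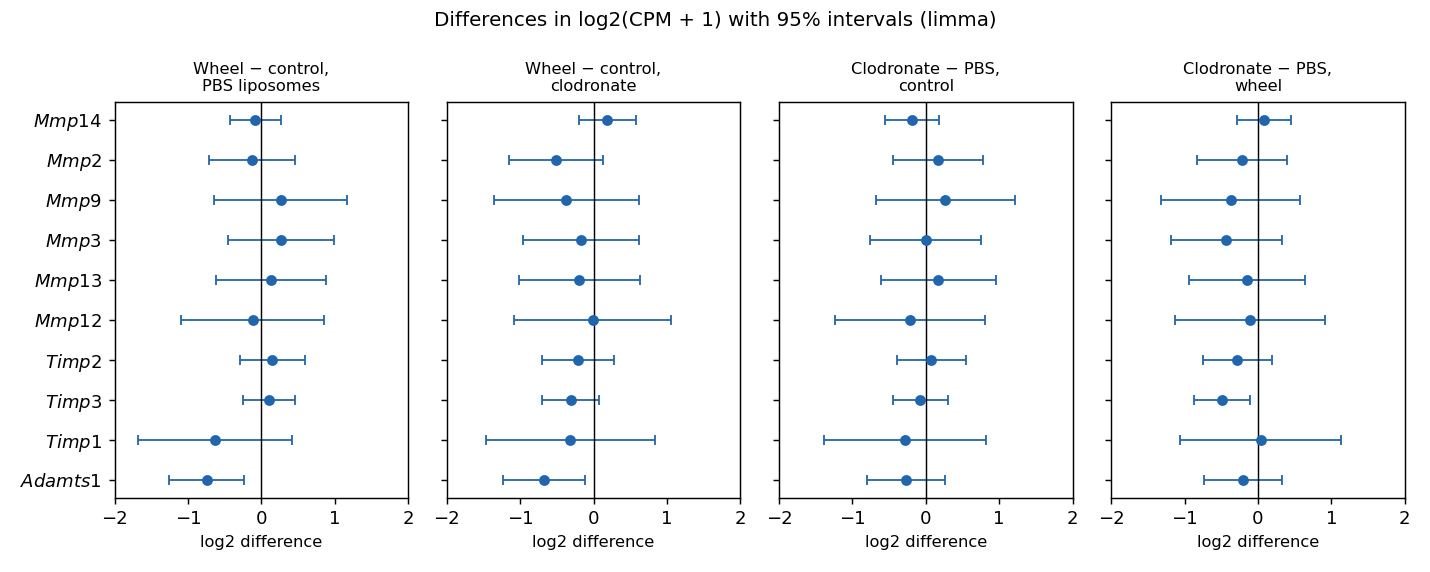
Log2 difference of each gene, in log2(CPM + 1), for the 4 comparisons of a pair of groups, with 95% intervals from limma over 22 mice. The intervals of Adamts1 lie below 0 in both wheel comparisons, that of Timp3 lies below 0 for clodronate in wheel mice, and all others include 0. None passed an adjusted p of 0.05.

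Clodronate liposomes were compared with PBS liposomes to see which transcripts moved when phagocytes had been targeted. Here too the adjusted p (limma) stayed above 0.05 for each of the 10 genes, in control mice, in wheel mice or averaged over activity, where the shares of all symbols called were 0%, 0.00661% and 0.205%. At an unadjusted p of 0.05 the counts were 0, 1 and 1 of 10, against 6.99%, 11.6% and 10.4% of all symbols, and in both cases the gene was Timp3. Groups did not overlap for 0.634% of symbols in control mice and 1.26% in wheel mice, and overlapped for each of the 10 genes. The median log2 difference of the 10 genes averaged over activity was -0.11, beside -0.04 over all symbols tested.

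Timp3 had 366 to 549 CPM (median 499.7) in wheel + PBS mice and 423, 320.45, 316, 289 and 321 CPM in wheel + clodronate mice. The clodronate group thus lay low and close together apart from replicate 1, which fell inside the range of the PBS group. Its means were 471 ± 82.6 (n = 6) and 334 ± 51.4 CPM (n = 5), a log2 difference of -0.49 ± 0.18 (limma adjusted p = 0.295, exact permutation p = 0.0130). In control mice the means were 437 ± 60.8 (n = 6) and 429 ± 136 CPM (n = 5), a log2 difference of -0.07 ± 0.18 whose sign turned with another scaling (0.05 with upper-quartile scaling). The 2 effects differed by -0.41 ± 0.26 (limma adjusted p = 0.724). Without the 5 lymphocyte-rich mice, 3 of which were wheel + clodronate mice, the log2 difference in wheel mice was -0.33 (limma adjusted p = 0.760). The adipocyte marker score moved the same way: wheel + clodronate mice had 8.98 to 9.54, and wheel + PBS mice 9.26 to 10.3. The difference was -0.50 (exact permutation p = 0.0498, and 0.682 when adjusted over all marker scores and comparisons). Without the lymphocyte-rich mice it was -0.34 (exact permutation p = 0.381). All 8 adipocyte markers were above the floor, with summed levels of 6818 to 10421 CPM against 8864 to 16290 CPM, and their part in the Timp3 values was not tested.

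Mmp12, named for the macrophage, was 0.16 ± 0.35 lower on the log2 scale with clodronate averaged over activity (limma adjusted p = 0.906). It ranged from 1 to 10.7 CPM in control + PBS, 1.42 to 9.54 in wheel + PBS, 2.10 to 6.84 in control + clodronate and 1.03 to 9.59 CPM in wheel + clodronate mice, so all 4 ranges overlapped. Mmp9 had 1, 10.9, 14.7, 1.54 and 6.03 CPM in control + clodronate mice, where the 2 highest values of the 22 mice occurred, beside 1 to 5.54 CPM in control + PBS mice. Mmp13 was above the floor in 3 of 6 control + PBS, 2 of 6 wheel + PBS, 3 of 5 control + clodronate and 1 of 5 wheel + clodronate mice. For none of the 10 genes was a difference of the wheel effect between liposomes detected (limma interaction, 0 of 10 at an adjusted or an unadjusted p of 0.05, beside 0% and 7.58% of all symbols). The largest estimate was -0.64 for Mmp9 (exact permutation p = 0.374), so differences of some size were not resolved.

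Partners of these genes were taken from 7 lists of 70 genes in all, of which 51 were tested and 13 were at the floor in every mouse. In limma 0 of the 51 had an adjusted p under 0.05 in any comparison. For the wheel averaged over liposomes, 7 genes were below 0 and 0 above at an unadjusted p of 0.05, and for clodronate averaged over activity 12 were below and 0 above, against 4.16% and 8.3% of all symbols below. The clodronate genes were mostly structural proteins that metalloproteinases cut: 8 of the 10 matrix substrates tested, with a median log2 difference of -0.58 over the 10. Fbn1 (fibrillin, of elastic microfibrils) was 35.5 ± 10.3 and 40.4 ± 9.13 CPM in control and wheel mice with PBS liposomes (n = 6 each), and 26.5 ± 9.497 and 18.4 ± 6.98 CPM with clodronate (n = 5 each). Its log2 difference was -0.78 ± 0.17 (limma adjusted p = 0.0527, and between 0.0344 and 0.118 under 10 alternatives). It was under 0.05 in 3 of those 10 and in 5 of 22 fits that left out 1 mouse (control + PBS replicate 2, control + clodronate replicate 1, 4 or 5, or wheel + clodronate replicate 5), where it ranged from 0.019 to 0.129. Fn1 (fibronectin) gave -0.49 ± 0.12 (limma adjusted p = 0.0836), with wheel + clodronate mice at 47.2 to 72.8 CPM and wheel + PBS mice at 76.7 to 114 CPM. The groups of wheel mice also did not overlap for the basement membrane collagens Col4a1 and Col4a2, which are named after their values were seen. With clodronate they had 159 to 233.0 and 52.9 to 83.7 CPM, and with PBS liposomes 240.2 to 433 and 88.8 to 181 CPM. Of all symbols, 1.26% did not overlap in this comparison. Col1a2, at a mean of 610 CPM the highest of the list, gave -0.45 ± 0.19 (limma adjusted p = 0.393). The fibroblast marker score was 0.28 lower with clodronate averaged over activity (exact permutation p = 0.0664), with all 8 markers above the floor and summed levels of 800 to 1600 CPM against 774 to 1932 CPM, and its part in these values was not tested.

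In the remaining lists few genes stood out. Among the 17 other metalloproteinases 8 were tested and 6 were at the floor in every mouse. Mmp15, a membrane-anchored enzyme, was the highest (21.6 CPM on average), and Mmp19 had for clodronate a log2 difference of -0.76 ± 0.24 (limma adjusted p = 0.216), while Mmp27 (1.75 CPM) lay at the floor in 10 mice. Of the 18 other ADAMTS proteases 12 were tested. Besides Adamts5, the procollagen peptidase Adamts2 had a log2 difference of -0.46 ± 0.20 for the wheel (limma adjusted p = 0.600). Reck, a membrane-bound inhibitor, stood at 2.35 CPM and gave 0.29 ± 0.22 for the wheel (limma adjusted p = 0.761). In the plasminogen activation list, the protease inhibitor Serpine2 was -0.81 ± 0.27 with the wheel (limma adjusted p = 0.545), and the tissue activator Plat -0.49 ± 0.29 (limma adjusted p = 0.681). The ADAM sheddases Adam15, Adam10 and Adam12, and Bsg and Lrp1 among the partners, had log2 differences from -0.16 to 0.32 for the wheel and from -0.45 to -0.14 for clodronate.

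Levels of the 3 inhibitors went with cell markers from mouse to mouse. The log2 levels of the 10 genes were set against 8 marker scores over the 22 mice (80 relations, permutation tests with 100000 draws, Benjamini-Hochberg adjusted), leaving out the lymphocyte score because it falls into separate clusters, and 12 relations passed an adjusted p of 0.05 by Pearson's r. Timp2 followed fibroblast markers (r = 0.834, rho = 0.827, both adjusted p = 0.000267) and Timp3 followed adipocyte markers (r = 0.809, rho = 0.797, both adjusted p = 0.000267). Timp1 followed the genes of dividing cells such as Mki67 and Top2a (r = 0.812, rho = 0.841, both adjusted p = 0.000267). The raw p was 1e-05 in these 6 cases, the smallest that the draws can give. Without the 2 mice farthest from the median score r was 0.846, 0.846 and 0.823, and on deviations from group means it was 0.860, 0.756 and 0.812, so the relations were also present within groups. Without the 5 lymphocyte-rich mice the 3 values were 0.827, 0.781 and 0.825.

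The mice with most Timp1 show this directly. Control + PBS replicate 1 (15.2 CPM) and wheel + PBS replicate 4 (15.1 CPM) had dividing scores of 4.57 and 4.56, and control + PBS replicate 6 (9.92 CPM) had 4.56, the 3 highest of the 22. The 3 mice with Timp1 at the floor had scores of 1.63, 1.95 and 2.46. Control + PBS replicate 4 was an exception, with a score of 4.27 and 2.34 CPM of Timp1. Dividing scores ranged from 1.45 to 4.57 and did not differ between groups beyond the spread of the mice (0 of 7 comparisons under an exact permutation p of 0.05). How many engrafted cells each piece of tissue held was not measured.

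**Figure D4:**
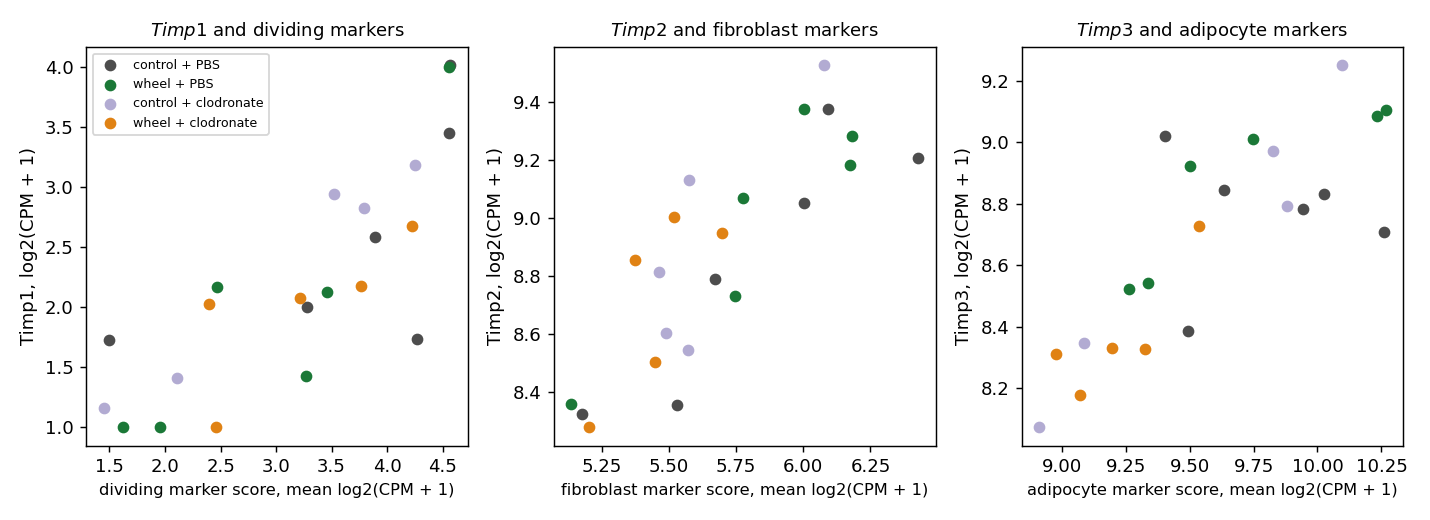
Log2(CPM + 1) of Timp1, Timp2 and Timp3 against the mean log2(CPM + 1) of dividing-cell, fibroblast and adipocyte markers, with 1 point per mouse and the 4 groups in colors. Levels of all 3 genes are higher with a higher value of their marker score over the 22 mice (r = 0.812, 0.834 and 0.809).

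The other 9 relations that passed set Timp1 and Mmp9 apart from Timp2 and Timp3. Timp1 and Mmp9 were lower where endothelial markers were higher (r = -0.629 and -0.595, adjusted p = 0.0151 and 0.0236), while Timp2 and Timp3 were higher there (r = 0.651 and 0.691, adjusted p = 0.0134 and 0.0052). The corresponding rank correlations were -0.612 and -0.488, and 0.657 and 0.615, of which that of Mmp9 did not pass (adjusted p = 0.107). Timp1 was higher and Timp2 lower where neutrophil markers were higher (r = 0.702 and -0.737, adjusted p = 0.00448 and 0.0022, rho = 0.669 and -0.757). That score spanned 1.48 to 1.88, with 4 or 5 of its 10 genes at the floor in all mice of a group. Mmp9 was higher with the dividing score (r = 0.598, rho = 0.593, adjusted p = 0.0236, and r = 0.444 without the 2 farthest mice). Timp3 was also higher with fibroblast markers (r = 0.648, rho = 0.641, adjusted p = 0.0138) and Timp2 with adipocyte markers (r = 0.567, rho = 0.562, adjusted p = 0.0471). Without the 5 lymphocyte-rich mice neither of these relations passed (r = 0.523, adjusted p = 0.136 for Timp3, and r = 0.604, adjusted p = 0.0716 for Timp2). The raw p of these 9 relations lay between 0.00011 and 0.00706. Without the 2 farthest mice r was -0.59 and -0.566 for Timp1 and Mmp9 with endothelial markers, 0.647 and 0.581 for Timp2 and Timp3 with them, 0.608 and -0.721 for Timp1 and Timp2 with neutrophil markers, 0.695 for Timp3 with fibroblast and 0.518 for Timp2 with adipocyte markers. No relation with macrophage, epithelial or muscle markers passed over the 22 mice, among them that of Mmp12 with macrophage markers. The closest was Mmp3 with muscle markers (r = -0.54, adjusted p = 0.0557, and r = -0.308 without the 2 farthest mice). Without the 5 lymphocyte-rich mice, Timp3 and Mmp3 were lower where muscle markers were higher (r = -0.661 and -0.646, adjusted p = 0.0389 and 0.0398). Their rank correlations did not pass there (adjusted p = 0.116 and 0.0527), and r was -0.365 and -0.373 without the 2 farthest of those mice.

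The genes were also set against each other. On deviations from group means over the 22 mice, given as a description since all values share libraries, Mmp3 and Mmp14 had the highest correlation (r = 0.737), followed by Timp2 with Timp3 (0.645) and Mmp2 with Timp2 (0.563). Mmp9 and Timp3 had -0.579, Timp1 and Timp2 -0.565, and Timp1 and Timp3 -0.512. The 3 genes on chromosome 9 with an AP-1 motif had r near 0 with each other, at -0.045 for Mmp3 with Mmp12, 0.016 for Mmp3 with Mmp13 and 0.095 for Mmp12 with Mmp13. Mmp13, with 13 values at the floor, carries little information in such a value.

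**Figure D5:**
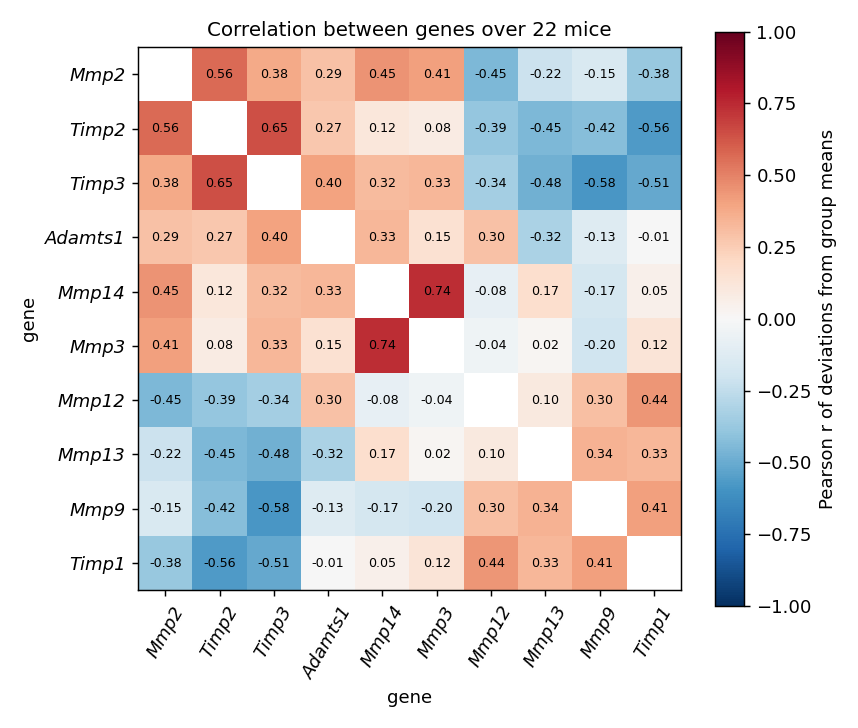
Pearson r between genes, on deviations of log2(CPM + 1) from group means over 22 mice, with red for positive and blue for negative values. Mmp3 with Mmp14 (0.737) and Timp2 with Timp3 (0.645) have the highest values, and Timp1 and Mmp9 are negatively correlated with Timp2 and Timp3.

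For each gene the most similar genes, at most 2, were then looked up by the same r among 13208 symbols. Timp1 was closest to Cep55 (0.922) and Cdt1 (0.914), which act in cell division and the licensing of replication. Timp2 was closest to Clec3b (0.892), which encodes tetranectin, and Lrrc58 (0.860), and Timp3 to Cc2d2a (0.900) and Asrgl1 (0.874). Adamts1 was closest to Sord (0.850) and Col6a3 (0.801), a collagen of the microfibrils around cells. Mmp9 had 0.852 with Exosc7, Mmp14 was closest to AU041133 (0.838) and Eif3g (0.775), and Mmp13 to Gpr141 (0.811) and Frrs1 (0.785). The values were 0.809 and 0.794 for Mmp3 (Dnajc1, Ifitm3), 0.768 for Mmp2 (Mblac1), and 0.708 and 0.692 for Mmp12 (Snrpe, Nup188). These are among the highest of many values and carry no test.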

How the data were processed

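RNA of 22 mouse mammary samples was converted to libraries with the QuantSeq 3′ FWD kit and sequenced on an Illumina HiSeq. Per the labels, the authors aligned reads to GRCm38 (the submitters' processing notes name STAR 2.5.3a) and deposited, per mouse, a signal per gene, CPM (reads scaled to a common library size), with values below 1 set to 1. Rows are not unique: 110 repeated symbols were dropped from 52636, and 4 rows that name no gene (unmapped, multimapping, no feature and ambiguous reads, leaving 57.23% to 64.53% of reads in genes) were left out. The share in genes was 60.4% to 64.5% in control + PBS and 58.3% to 63.7% in wheel + PBS mice. With clodronate it was 58.7% to 63.0% in control and 57.2% to 58.5% in wheel mice. The deposited CPM counts all reads, and scaling to reads in genes was run as another setting. Library totals were recovered from the step between values, and all values above the floor came out whole within 0.1 read. Because of the floor no count model was used and the test planned for CPM was kept.

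The main test was limma 3.58.1 with a variance trend (R 4.3.3) on log2(CPM + 1), with symbols above the floor in at least 5 mice, 4 group means and 7 contrasts, and Benjamini-Hochberg adjustment over 15138 symbols. Fold values are on the log2(CPM + 1) scale, which understates differences of low genes. Exact permutation tests of single genes (Python 3.11.15, scipy 1.17.1), stratified by the other factor for averaged contrasts, were added after the values were seen. Samples within a group are different mice. On simulated data for wheel against control with PBS liposomes (15138 genes, 200 shifted by 1.5 log2 units), 78% were recovered with 7 false calls. Only genes with a mean above 5 CPM were shifted, and the shift was larger than the Adamts1 difference in this comparison (-0.75). The recovery of smaller differences, or of genes nearer the floor, was not simulated.

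Marker scores are means of log2(CPM + 1). The genes, marker lists and pathway lists were chosen with earlier results of these data known. Named partners are, in each list, the gene with the highest mean CPM and the 2 with the smallest p in either averaged contrast, and for each gene studied the 2 genes of highest r among symbols above the floor in at least 11 mice. Promoters are from RefSeq (GRCm38.p6, 8 of 10 genes matched). Some genes that this rule names are not reported here.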

Additional observations from a re-analysis of the deposited data

Results flagged for a closer look

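In 6 of the 40 combinations of gene and group, 1 mouse lay far from the rest of its group on the log2(CPM + 1) scale (Dixon's criterion). Chance flags about 1 in 20 groups where values vary freely. That rate does not apply to Mmp13, since most of its values are set to the floor and any mouse above it then stands apart.

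Mmp13 stood at 4.39 CPM in control + PBS replicate 2 (the others 1 to 1.56 CPM), at 5.79 CPM in control + clodronate replicate 3 (the others 1 to 1.81 CPM) and at 4.99 CPM in wheel + clodronate replicate 2, where the other 4 mice were at the floor. Mmp9 was at the floor of 1 CPM in control + PBS replicate 5 (the others 4.19 to 5.54 CPM) and reached 10.7 CPM in wheel + PBS replicate 5 (the others 3.30 to 4.70 CPM). Timp3 was at 423 CPM in wheel + clodronate replicate 1, above the 289 to 321 CPM of the other 4, and 3 of those 4 are lymphocyte-rich mice.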

How the results depend on the processing

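No fit called any of the 10 genes: the count stayed at 0 in 74 fits under other settings and in 110 fits that each left out 1 mouse (range 0 to 0 per comparison), with a lowest adjusted p of 0.151. The settings were pseudocounts of 0.1, 5 and none, filters (above the floor in at least 1 mouse, chosen after seeing the data, and a mean of at least 5 CPM, which leaves out Mmp9, Timp1 and Mmp13), 2 scalings, no variance trend, only the groups compared, the lymphocyte-rich mice left out, and a replicate block. A fit with no filter was not run, since symbols at the floor in every mouse have no spread. Of the 719 single differences recomputed under other settings, 30 turned sign, none of a difference larger than 0.32 as reported. Of the 1100 recomputed without 1 mouse, 107 turned sign. Adamts1 stayed negative for the wheel throughout. Averaged over liposomes it was -0.75 to -0.59 under other settings (limma adjusted p 0.451 to 0.601). Without 1 mouse it was -0.78 to -0.62 (limma adjusted p 0.229 to 0.849). Timp3 stayed negative for clodronate in wheel mice, at -0.49 to -0.33 under other settings and -0.58 to -0.44 without 1 mouse. Upper-quartile scaling moved the median of all symbols for clodronate in control mice from -0.10 to -0.0044.

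Counts over all symbols were less stable. For clodronate averaged over activity, 31 symbols were called, 54 with a mean of at least 5 CPM, 20 without the variance trend, 15 and 14 under the 2 scalings, and 0 (at 17 mice) without the lymphocyte-rich mice. Leaving out single mice gave 12 to 146, the highest without control + clodronate replicate 1. For the wheel with clodronate, 1 symbol became 174 or 240 without wheel + clodronate replicate 1 or 2. The sample titles number the mice without repeats, and the replicate numbers used here count them within each group, so no title pairs them. Deviations of same-numbered mice correlated at -0.075 on average between the PBS groups (-0.252 to 0.114). Between the clodronate groups the mean was 0.181 (-0.120 to 0.517), and 2 of 5 wheel mice correlated best with their own number (0 of 6 with PBS). With the replicate block 11 symbols were called for clodronate averaged over activity, and none of the 10 genes. Of the neighbours in the order of levels 6 pairs were separated in each leave-one-out fit and 5 without the lymphocyte-rich mice. The 12 marker relations became 15 under upper-quartile scaling, where that of Timp2 with adipocyte markers no longer passed (permutation adjusted p = 0.0557). Without the lymphocyte-rich mice the count was again 12, but the relations were partly different ones. With at most 6 mice a group, the 95% interval of Timp1, the widest, reached 1.05 to 1.15 log2 units to either side in comparisons of a pair of groups and 0.78 in averaged ones. Marker scores without the lymphocyte-rich mice were added after seeing the data.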
